A study of Mus musculus with 9 samples.

Results

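The genes described here take glucose into brain cells, break it down to pyruvate and pass pyruvate to the mitochondria. They were taken from a list of 35 gene symbols. A probe of the arrays whose RefSeq accession maps to the symbol was found for 34 of them, among 16358 genes with such a probe, and Gapdh was not analysed here. The animals were male wild-type C57BL/6J mice of 8 to 9 weeks. AD mice had free access to food and served as controls. RFR mice went through repeated cycles of fasting and refeeding, and CR mice received, over the same days, a set part of what the RFR mice had eaten. Amygdala, hypothalamus and prefrontal cortex were dissected from coronal brain slices on day 8, and 1 single-colour Agilent array was run for every region of every diet, 9 in all. RNA from 4 mice was pooled for each array, so the spread between single mice was not measured. The series title names food restriction, gene expression in the amygdala and anxiety- and depression-like behaviour.

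Glycolysis turns glucose into pyruvate in the cytosol. Transporters of the Slc2a family bring glucose across the blood-brain barrier and into cells, hexokinase traps it, and phosphofructokinase sets the pace of the steps that follow. Pyruvate is then reduced to lactate, which brain cells exchange, or enters mitochondria through the pyruvate carrier and is oxidised by the pyruvate dehydrogenase complex, which its kinases switch off.

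Levels are log2 values of the processed signal over the 75th percentile of all noncontrol spots on the same array, so a difference of 1 is a 2-fold difference. Each gene is read through its own probe, and the levels of different genes are not compared. All 34 genes were well above background on all 9 arrays, and 9 of them were bright enough to be read from the low-gain scan on every array. Of the 43379 noncontrol spots of an array, 25958 to 30199 were well above background, and the median SD of log2 signal between repeated spots of a probe on 1 array was 0.051 to 0.076. The arrays lay on 3 slides. Slide 1 held the 3 AD arrays and the RFR prefrontal cortex, slide 2 held the RFR and CR hypothalamus, the RFR amygdala and the CR prefrontal cortex, and slide 3 held the CR amygdala alone, so that its diet and its slide cannot be told apart. All 8 neuronal markers were well above background on every array, and their summed signal was 108 to 119 times the 75th percentile in hypothalamus, 150 to 175 in amygdala and 216 to 253 in prefrontal cortex. Oligodendrocyte markers ran the other way, at 165 to 219 in hypothalamus, 102 to 147 in amygdala and 57.4 to 105 in prefrontal cortex. Summed pituitary markers, Pomc among them, were 17.4 to 31.7 in hypothalamus and 1.16 to 4.65 elsewhere, and choroid plexus markers 6.85 to 7.86 and 0.331 to 4.19. In bulk tissue, fewer cells of a type and less RNA per cell cannot be told apart.

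The hypothalamus differed most from the prefrontal cortex, with 18 of 34 genes called. Lower in hypothalamus were 13 of them: Slc2a3, Pfkl, Pfkp, Aldoa, Tpi1, Pgk1, Pgam1, Ldha, Ldhb, Mpc1, Pdha1, Pdk1 and Pdk3, a set that runs from a neuronal glucose transporter to the kinases of pyruvate dehydrogenase. The other 5, Slc2a4, Pfkfb3, Pfkfb4, Aldoc and G6pc3, were higher. Calls are those of a limma model of region and diet with a Benjamini-Hochberg adjusted p under 0.05, and in that contrast it called 21.3% of the 12619 genes tested lower and 26.7% higher. The share of the 34 genes called lower was 38.2% and the share called higher 14.7%. In either direction 52.9% of the 34 genes were called, beside 48.0% of all genes, so the count was near the background. All genes too were called most often in this contrast. The median difference of the 34 genes was -0.20, beside 0.06 over all genes tested. Without the RFR pool the count fell to 6, with 3 lower and 3 higher, so the skew to lower calls was not kept. That fit called 1490 of all 12619 genes lower and 2006 higher, and the median difference of the 34 genes was -0.23. Without the CR pool 8 were lower and 3 higher, 11 in all, and without the AD pool 9 were lower and 3 higher.

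Between hypothalamus and amygdala 8 genes were called. Slc2a1, Pfkfb3, Aldoc, Pcx and G6pc3 were higher in hypothalamus, where 15.9% of all genes were, and Slc2a3, Ldha and Pdk3 were lower, as were 13.5% of all genes. Between prefrontal cortex and amygdala 6 were called, with Pgk1, Ldhb, Mpc1 and Pdk1 higher in prefrontal cortex against a background of 10.2%, and Slc2a4 and Pfkfb4 lower against 12.1%. In either direction these were 23.5% and 17.6% of the 34 genes, beside 29.5% and 22.3% of all genes, so the counts did not exceed the background. With quantile scaling the prefrontal cortex had 2 genes higher and 2 lower than amygdala. Of the 8 calls of the first contrast, 3 held without the AD pool, 1 without the RFR pool, 2 without the CR pool and 5 without the CR amygdala array. Of the 6 of the second, 3 held without the AD pool, 1 without the RFR or the CR pool and 3 without the CR amygdala array. All 32 calls of the 3 contrasts had the same sign within each of the 3 diet pools. The calls were made on these same pools, so this agreement is not separate support for them. The 3 contrasts share arrays, so they are not independent of each other.

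**Figure D1:**
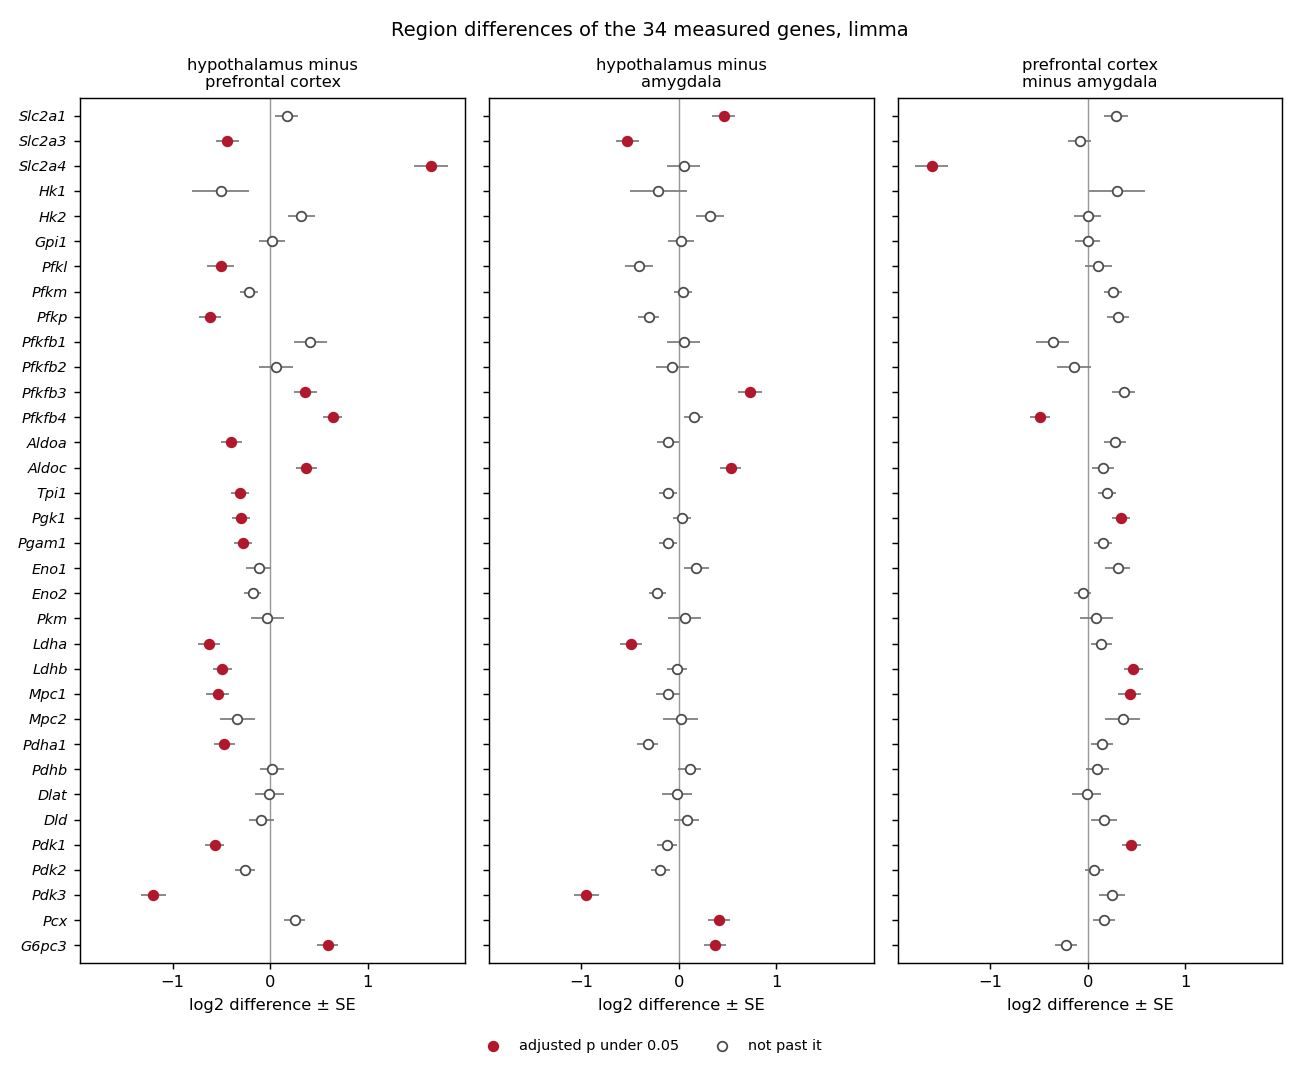
Difference in log2 signal between regions for the 34 measured genes, ordered along the pathway, one panel a contrast. Points are limma estimates, bars their standard errors, and filled points have an adjusted p under 0.05. Slc2a4 at 1.65 and Pdk3 at -1.20 stand farthest from 0 in the panel of hypothalamus minus prefrontal cortex.

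Hypothalamus was called against both other regions for 6 genes: Pfkfb3, Aldoc and G6pc3 were highest there and Slc2a3, Ldha and Pdk3 were lowest. Of all genes, 29.5% were called against amygdala and 48.0% against prefrontal cortex, in contrasts that share the hypothalamus arrays. The share of all genes called in both was not computed, so the 6 cannot be set against a background. The promoters of 5 of these 6 genes are printed because these genes differed from both other regions, each as 250 bases before to 50 bases after the start of the gene, 5′ to 3′ on the gene's strand, from RefSeq on GRCm38.p6. Slc2a3 is named only. Capitals mark a GC box, GGGCGG, or an E box, CACGTG, on either strand, and these motifs can share an end base. The GC box is bound by Sp factors, and the E box by basic helix-loop-helix proteins such as the carbohydrate response factors and clock proteins.
Pfkfb3, chr2:11553880-11554179, minus strand: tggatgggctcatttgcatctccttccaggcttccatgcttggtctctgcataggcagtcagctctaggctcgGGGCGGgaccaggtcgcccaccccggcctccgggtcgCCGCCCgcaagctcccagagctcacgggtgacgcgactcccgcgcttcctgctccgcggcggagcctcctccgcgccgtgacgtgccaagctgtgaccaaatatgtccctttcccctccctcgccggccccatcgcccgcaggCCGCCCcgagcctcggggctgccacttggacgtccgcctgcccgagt
Aldoc, chr11:78322823-78323122, plus strand: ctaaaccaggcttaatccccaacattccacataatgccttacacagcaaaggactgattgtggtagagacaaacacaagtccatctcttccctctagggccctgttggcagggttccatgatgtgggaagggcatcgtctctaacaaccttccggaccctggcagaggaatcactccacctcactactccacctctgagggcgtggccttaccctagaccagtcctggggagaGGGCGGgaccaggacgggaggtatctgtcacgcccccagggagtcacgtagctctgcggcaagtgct
G6pc3, chr11:102189449-102189748, plus strand: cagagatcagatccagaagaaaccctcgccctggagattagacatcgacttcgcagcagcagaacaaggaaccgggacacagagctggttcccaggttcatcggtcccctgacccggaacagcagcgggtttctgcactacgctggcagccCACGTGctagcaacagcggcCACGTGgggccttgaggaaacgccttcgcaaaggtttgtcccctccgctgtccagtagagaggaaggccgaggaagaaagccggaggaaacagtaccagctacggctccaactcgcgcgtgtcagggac
Ldha, chr7:46845554-46845853, plus strand: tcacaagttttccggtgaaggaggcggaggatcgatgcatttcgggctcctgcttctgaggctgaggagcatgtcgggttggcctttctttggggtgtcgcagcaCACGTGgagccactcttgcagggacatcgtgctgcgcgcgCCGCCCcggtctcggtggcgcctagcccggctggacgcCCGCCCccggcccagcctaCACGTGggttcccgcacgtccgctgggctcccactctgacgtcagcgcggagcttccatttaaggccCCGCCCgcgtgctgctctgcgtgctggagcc
Pdk3, chrX:93832101-93832400, minus strand: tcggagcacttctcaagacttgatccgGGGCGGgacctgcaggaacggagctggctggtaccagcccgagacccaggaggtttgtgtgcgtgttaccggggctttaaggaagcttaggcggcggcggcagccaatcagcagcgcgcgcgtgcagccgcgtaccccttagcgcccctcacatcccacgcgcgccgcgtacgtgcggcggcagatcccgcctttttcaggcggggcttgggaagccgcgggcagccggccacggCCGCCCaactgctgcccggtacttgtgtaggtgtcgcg
The windows of Pfkfb3, Ldha and Pdk3 hold 3, 3 and 2 GC boxes and that of Aldoc holds 1. E boxes occur in the windows of G6pc3 and Ldha, with 2 in each. Of the 32 members with a promoter window, 21 held a GC box (65.6%), against 35.9% of 27025 promoters of the same length. An E box was in 6 windows (18.8%, against 7.24%), and TATAAA on either strand was in 2 (6.25%, against 14.2%). A match is a run of letters and was not tested as a binding site.

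Among the glucose transporters, the insulin-responsive Slc2a4 (GLUT4) had the widest range of the 34 genes, 2.21 over the 9 arrays. Listing the arrays of a region in the order AD, RFR and CR here and in what follows, Slc2a4 read -2.58, -2.42 and -2.57 in prefrontal cortex, -1.15, -0.88 and -0.73 in amygdala and -1.16, -1.08 and -0.37 in hypothalamus. Every prefrontal array was below every array of the other regions, and hypothalamus and amygdala overlapped. The hypothalamus was 3.14-fold above prefrontal cortex (log2 difference 1.65 ± 0.17 SE, limma adjusted p = 0.00027), and prefrontal cortex 3.04-fold below amygdala (-1.60 ± 0.17, limma adjusted p = 0.00096). Both calls held in all 12 alternative settings, with adjusted p up to 0.0075 and 0.029. Within slide 1 the AD hypothalamus exceeded the AD prefrontal cortex by 1.42, and within slide 2 the difference of the CR arrays was 2.20.

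Slc2a1 (GLUT1), the transporter of the blood-brain barrier and astrocytes, and Slc2a3 (GLUT3), the main neuronal one, split the hypothalamus in opposite directions from the amygdala. Slc2a3 read 2.94, 2.86 and 2.83 in hypothalamus, 3.30, 3.35 and 3.56 in amygdala and 3.41, 3.35 and 3.19 in prefrontal cortex. The 3 hypothalamus arrays were the lowest of the 9. The differences were -0.53 ± 0.12 against amygdala (limma adjusted p = 0.016) and -0.44 ± 0.12 against prefrontal cortex (limma adjusted p = 0.019), the first lost without the RFR or CR pool and with slide as a term, the second without the AD or RFR pool and with quantile scaling. Slc2a1 read 3.97, 3.74 and 3.96 in hypothalamus, 3.43, 3.51 and 3.36 in amygdala and 3.63, 3.84 and 3.70 in prefrontal cortex. It was above amygdala by 0.46 ± 0.12 (limma adjusted p = 0.025), a call lost when any 1 of the 3 pools or the CR amygdala array was left out or with slide as a term, and its difference from prefrontal cortex was 0.17 ± 0.12. Within the 3 pools, the hypothalamus minus amygdala difference of Slc2a1 exceeded that of Slc2a3 by 0.91, 0.73 and 1.33 (0.99 ± 0.31 SD, n = 3 pools). Neuronal markers moved in the direction of Slc2a3, with 4 of 8 called lower in hypothalamus than in amygdala and 6 of 8 lower than in prefrontal cortex. Of the 10 endothelial markers, 2 and 7 were called lower in the same contrasts, as were 4 and 5 of the 8 microglial markers. Among 9 astrocyte markers, 1 was called lower and 0 higher in hypothalamus than in amygdala. Of the 10 oligodendrocyte markers, 8 were called higher in hypothalamus than in amygdala and 10 higher than in prefrontal cortex. The part of these cell types in these differences was not tested.

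At the first steps of glycolysis, neither hexokinase, Hk1 or Hk2, nor the isomerase Gpi1 was called in a region contrast. Gpi1 lay between 6.58 and 6.97 on the 9 arrays, and its regional means of 6.77, 6.79 and 6.77 in amygdala, hypothalamus and prefrontal cortex differed by less than the spread within a region. Hk2 read -0.22, -0.05 and 0.27 in hypothalamus, -0.50, -0.21 and -0.25 in amygdala and -0.31, -0.20 and -0.42 in prefrontal cortex. Its hypothalamus estimates of 0.32 ± 0.14 against either region had adjusted p = 0.12 and 0.095 by limma. For hypothalamus minus prefrontal cortex Hk1 was at -0.51 ± 0.29 (adjusted p = 0.18 by limma), and the arrays of these regions did not overlap. Its other probes well above background on all 9 arrays gave -0.52 and -0.51. Hk1 had the widest spread within a region, which is described with the diets.

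Of the 3 phosphofructokinase subunits, the liver type Pfkl and platelet type Pfkp were called lower in hypothalamus than in prefrontal cortex. Pfkp read 2.61, 2.52 and 2.34 in hypothalamus, 3.19, 3.18 and 2.96 in prefrontal cortex and 2.68, 3.02 and 2.70 in amygdala. The difference of -0.62 ± 0.11 (1.53-fold, limma adjusted p = 0.0038) held in all 12 alternatives, with adjusted p up to 0.049, and its second probe gave -1.07. Pfkl read 2.10, 1.91 and 1.70 in hypothalamus, 2.78, 2.31 and 2.17 in prefrontal cortex and 2.27, 2.38 and 2.29 in amygdala. It differed by -0.51 ± 0.14 (limma adjusted p = 0.021), a call lost without the RFR or CR pool, and in both hypothalamus and prefrontal cortex the AD array was the highest and the CR array the lowest. The muscle type Pfkm was not called in this contrast, at -0.22 ± 0.09 (adjusted p = 0.080 by limma). Its difference exceeded that of Pfkp by 0.36, 0.46 and 0.36 within the pools (0.40 ± 0.06 SD, n = 3 pools), so the subunits did not shift equally on these probes.

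The 4 Pfkfb genes encode the bifunctional enzymes that make and remove fructose 2,6-bisphosphate, the activator of phosphofructokinase. Pfkfb3, the form with the strongest kinase bias, read 2.26, 2.11 and 2.04 in hypothalamus, 1.45, 1.42 and 1.34 in amygdala and 1.70, 2.0 and 1.63 in prefrontal cortex. The hypothalamus arrays were the 3 highest of the 9. The difference was 0.73 ± 0.12 against amygdala (1.66-fold, limma adjusted p = 0.0039) and 0.36 ± 0.12 against prefrontal cortex (limma adjusted p = 0.038), the latter lost when any 1 of the 3 pools was left out. Its 2 other probes were not well above background on most arrays, and averaging them in ended both calls. Pfkfb4 separated prefrontal cortex from both other regions, at 1.67, 1.83 and 1.54 there, 2.36, 2.45 and 2.15 in hypothalamus and 2.11, 2.48 and 1.91 in amygdala. No prefrontal array reached the lowest array elsewhere. Hypothalamus exceeded it by 0.64 ± 0.10 (1.56-fold, limma adjusted p = 0.0021), which held in all 12 alternatives with adjusted p up to 0.029. The prefrontal cortex minus amygdala difference was -0.49 ± 0.10 (limma adjusted p = 0.016), a call lost when any 1 pool was left out, with slide as a term or without the diet term. Pfkfb1 and Pfkfb2 were not called, with hypothalamus minus prefrontal cortex at 0.41 ± 0.17 (adjusted p = 0.086 by limma) and 0.06 ± 0.17.

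**Figure D2:**
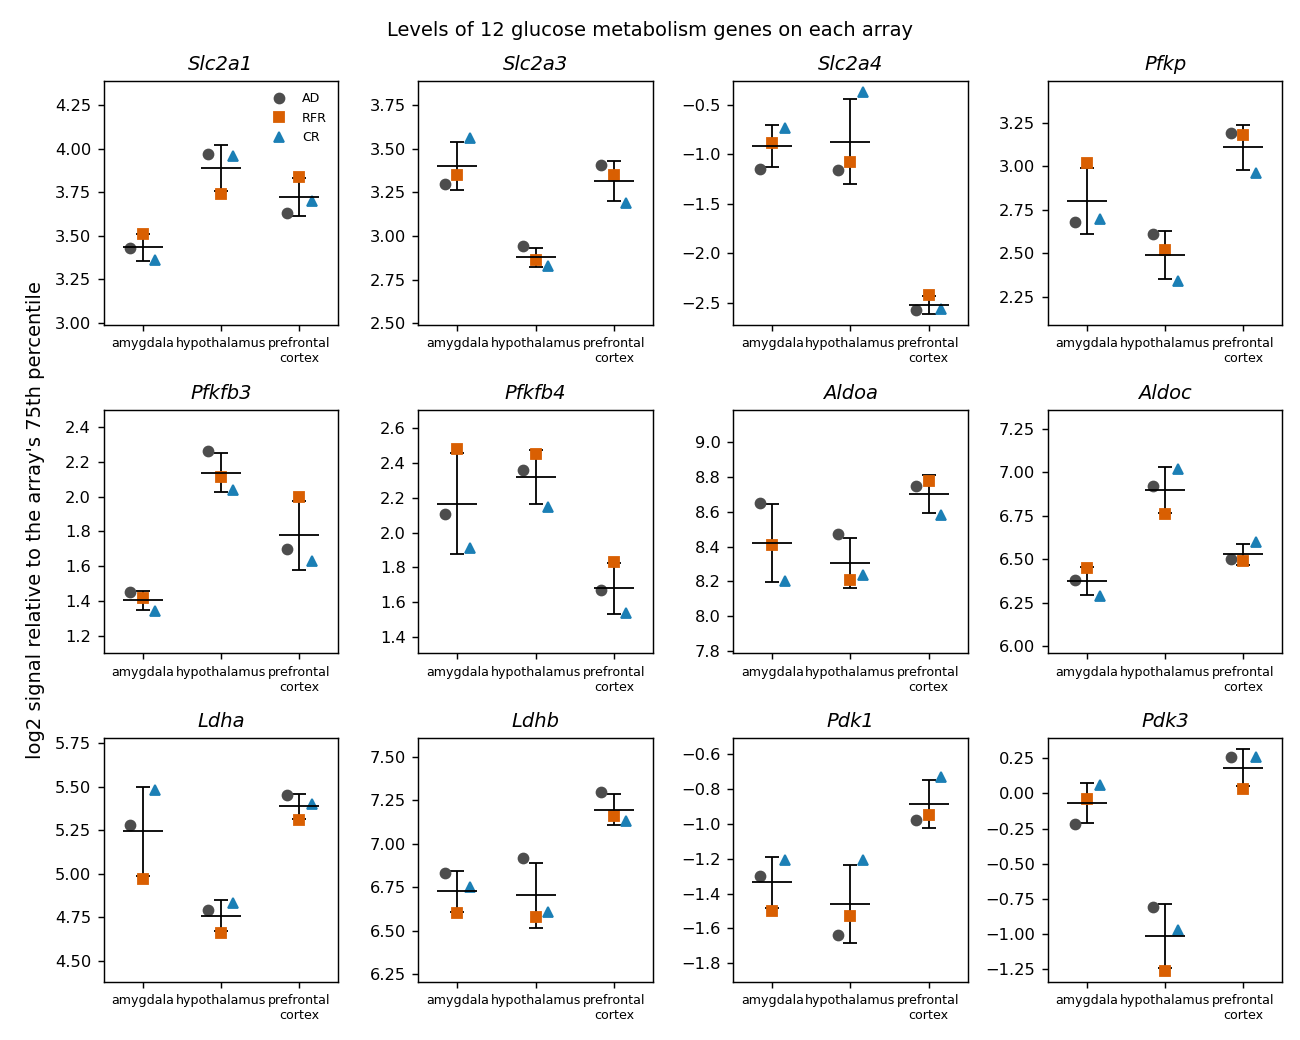
Level on each array of 12 genes, as log2 signal over the 75th percentile, by region on the horizontal axis. Circles are AD, squares RFR and triangles CR, long bars are means of the 3 arrays of a region and whiskers are 1 SD. In Slc2a3, Ldha and Pdk3 the 3 hypothalamus arrays lie lowest, in Pfkfb3 and Aldoc highest, and in Slc2a4 and Pfkfb4 the 3 prefrontal arrays lie lowest.

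The aldolases went opposite ways. Aldoc, the brain form found mainly in astrocytes, read 6.92, 6.76 and 7.02 in hypothalamus, 6.38, 6.45 and 6.29 in amygdala and 6.50, 6.49 and 6.60 in prefrontal cortex. The hypothalamus arrays did not overlap with the rest, and were above amygdala by 0.53 ± 0.11 (1.44-fold, limma adjusted p = 0.011) and above prefrontal cortex by 0.37 ± 0.11 (limma adjusted p = 0.028). Leaving out any 1 pool ended both calls. The first was also lost with slide as a term, and the second in a fit without the background filter. Aldoa, the ubiquitous form, read 8.47, 8.21 and 8.24 in hypothalamus and 8.75, 8.78 and 8.58 in prefrontal cortex, a difference of -0.40 ± 0.11 (limma adjusted p = 0.020) that was -0.39 on its second probe. That call was lost without the RFR or CR pool, with slide as a term and with quantile scaling, which took the difference to -0.07 (limma adjusted p = 0.75, the highest of a range from 0.0086). Within the pools the hypothalamus minus prefrontal cortex difference of Aldoc exceeded that of Aldoa by 0.70, 0.84 and 0.76 (0.76 ± 0.07 SD, n = 3 pools). Astrocyte markers did not show one direction, with 3 of 9 called higher and 1 lower in hypothalamus than in prefrontal cortex and summed signals of 87.3 to 109 and 77.8 to 90.9, and their part was not tested.

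The enzymes from triose phosphate to pyruvate differed little between regions. Tpi1, Pgk1 and Pgam1, which interconvert the triose phosphates, make the first ATP of the pathway and move the phosphate of phosphoglycerate, were lower in hypothalamus than in prefrontal cortex by small amounts, -0.31 ± 0.09, -0.30 ± 0.09 and -0.28 ± 0.09 (limma adjusted p = 0.030, 0.030 and 0.043). Each of these 3 calls was lost when any 1 pool was left out and with slide as a term. Pgk1 read 5.83, 5.69 and 5.82 in prefrontal cortex, above 5.44, 5.42 and 5.47 in amygdala by 0.34 ± 0.09 (limma adjusted p = 0.039), a call that held in 4 of 12 alternatives. The enolases Eno1 and Eno2, the second being the neuronal form, and the pyruvate kinase Pkm were not called in any region contrast. Eno2 lay between 4.98 and 5.32 on the 9 arrays, a range of 0.34 that was the narrowest of the 34 genes, and read 5.19, 5.06 and 4.98 in hypothalamus.

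Lactate dehydrogenase is built from Ldha, whose enzyme favours making lactate, and Ldhb, whose enzyme favours using it. Ldha read 4.79, 4.66 and 4.83 in hypothalamus, 5.28, 4.97 and 5.48 in amygdala and 5.45, 5.31 and 5.40 in prefrontal cortex. The hypothalamus arrays were the 3 lowest, by 0.63 relative to prefrontal cortex (-0.63 ± 0.11, 1.54-fold, limma adjusted p = 0.0033) and by 0.49 relative to amygdala (-0.49 ± 0.11, limma adjusted p = 0.017). The first call held in all 12 alternatives with adjusted p up to 0.041, and the second was lost when any 1 pool was left out and with slide as a term. A second Ldha probe gave -0.71 and -0.36. Ldhb read 7.30, 7.16 and 7.13 in prefrontal cortex, 6.92, 6.58 and 6.61 in hypothalamus and 6.83, 6.60 and 6.75 in amygdala. It was lower in hypothalamus than in prefrontal cortex by -0.49 ± 0.10 (limma adjusted p = 0.0053), a call lost without the RFR pool and with quantile scaling, and higher in prefrontal cortex than in amygdala by 0.47 ± 0.10 (limma adjusted p = 0.014), lost without the RFR or CR pool, with slide as a term and with quantile scaling. Its difference between hypothalamus and amygdala was -0.02 ± 0.10. Within the pools the hypothalamus minus amygdala difference of Ldhb exceeded that of Ldha by 0.59, 0.30 and 0.52 (0.47 ± 0.15 SD, n = 3 pools). For hypothalamus minus prefrontal cortex the excess was 0.28, 0.07 and 0.05 (0.13 ± 0.13 SD, n = 3 pools), no larger than its spread.

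Pyruvate enters mitochondria through a carrier made of Mpc1 and Mpc2. Mpc1 read 4.33, 3.96 and 4.12 in hypothalamus, 4.75, 4.57 and 4.71 in prefrontal cortex and 4.47, 4.26 and 4.02 in amygdala. No array of another region reached the lowest prefrontal array, with hypothalamus at -0.54 ± 0.12 relative to it (1.45-fold, limma adjusted p = 0.0086) and prefrontal cortex above amygdala by 0.43 ± 0.12 (limma adjusted p = 0.043). The first call was lost without the RFR pool, with an adjusted p of up to 0.089 over the alternatives, and the second held in 4 of 12 alternatives. A second Mpc1 probe gave -0.50 and 0.38. Mpc2 pointed the same way but was not called, at -0.34 ± 0.18 (adjusted p = 0.16 by limma). Of the pyruvate dehydrogenase complex, the E1 alpha subunit Pdha1 was called, lower in hypothalamus than in prefrontal cortex by -0.47 ± 0.11 (limma adjusted p = 0.011), though its second probe gave -0.12 and the mean of both probes was not called, nor was the gene without the AD or RFR pool. The other subunits Pdhb, Dlat and Dld differed between these regions by 0.02, -0.01 and -0.09.

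The pyruvate dehydrogenase kinases, which phosphorylate the complex and turn it off, included the gene farthest below the other regions in hypothalamus. Pdk3 read -0.81, -1.26 and -0.97 in hypothalamus, -0.22, -0.04 and 0.06 in amygdala and 0.26, 0.03 and 0.26 in prefrontal cortex. No hypothalamus array came within 0.5 of an array of another region. The difference was -1.20 ± 0.13 from prefrontal cortex (2.30-fold, limma adjusted p = 0.00037), held in all 12 alternatives with adjusted p up to 0.011, and -0.95 ± 0.13 from amygdala (1.93-fold, limma adjusted p = 0.0025), lost without the RFR pool at an adjusted p of 0.052. A second Pdk3 probe gave -0.74 and -0.54. Pdk1 read -1.64, -1.53 and -1.21 in hypothalamus, -0.98, -0.95 and -0.73 in prefrontal cortex and -1.30, -1.50 and -1.21 in amygdala, and the 3 prefrontal arrays were the highest. It differed by -0.57 ± 0.10 between hypothalamus and prefrontal cortex (1.49-fold, limma adjusted p = 0.0039) and by 0.45 ± 0.10 between prefrontal cortex and amygdala (limma adjusted p = 0.023), the former lost without the RFR pool, the latter without the RFR or CR pool, without the CR amygdala array, with slide as a term or without the diet term. Pdk2 was not called, at -0.26 ± 0.10 (adjusted p = 0.073 by limma). Within the pools the hypothalamus minus prefrontal cortex difference of Pdk2 exceeded that of Pdk3 by 0.80, 0.96 and 1.04 (0.93 ± 0.13 SD, n = 3 pools). The difference of Pdk1 exceeded that of Pdk3 by 0.42, 0.72 and 0.75 (0.63 ± 0.18 SD, n = 3 pools).

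Both remaining genes had their highest regional mean in hypothalamus. G6pc3, the widely expressed glucose-6-phosphatase, read 3.46, 3.23 and 3.17 there, 2.88, 3.01 and 2.88 in amygdala and 2.77, 2.65 and 2.67 in prefrontal cortex. No hypothalamus array overlapped with the other regions. It was 0.59 ± 0.11 above prefrontal cortex (1.51-fold, limma adjusted p = 0.0035, up to 0.047 over the 12 alternatives, all called) and 0.37 ± 0.11 above amygdala (limma adjusted p = 0.040, held in 5 of 12 alternatives). Pcx, the pyruvate carboxylase that refills the citric acid cycle and in brain is mainly astrocytic, read 3.42, 3.24 and 3.36 in hypothalamus and 2.96, 3.02 and 2.80 in amygdala. Its difference of 0.41 ± 0.11 (limma adjusted p = 0.033) held in 6 of 12 alternatives, and against prefrontal cortex it was 0.25 ± 0.11 (adjusted p = 0.11 by limma).

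Of 74 other genes of glucose metabolism, from further transporters and isoenzymes to glycogen and the pentose phosphate pathway, 58 were tested. Between hypothalamus and prefrontal cortex 18 were called higher and 17 lower, 31.0% and 29.3% of those tested beside 26.7% and 21.3% of all genes. Between hypothalamus and amygdala 12 were higher and 9 lower, 20.7% and 15.5% beside 15.9% and 13.5%. Between prefrontal cortex and amygdala 8 were higher and 5 lower, 13.8% and 8.62% beside 10.2% and 12.1%. The widest difference named here exceeded any among the 34 genes. Hkdc1, a hexokinase domain protein, read -1.46, -1.58 and -1.66 in hypothalamus and 2.94, 3.23 and 2.79 in prefrontal cortex, 23.5-fold apart (-4.55 ± 0.16, limma adjusted p = 2.6e-06). Higher in hypothalamus were the liver form of glycogen phosphorylase Pygl (1.46), the transporter Slc2a12 (1.33), the aspartate-glutamate carrier Slc25a13 (1.31), the phosphoglucomutase Pgm1 (1.27) and the ADP-dependent kinase of glucose Adpgk (1.09), all as log2 differences. The phosphorylase kinase subunit Phka1, not well above background in prefrontal cortex, was at least 1.92-fold higher in hypothalamus. Lower there were the glycerol phosphate dehydrogenase Gpd1 (-2.90), the muscle phosphoglycerate mutase Pgam2 (-1.86), the pyruvate dehydrogenase phosphatase Pdp1 (-1.52), the fructose bisphosphatase Fbp1 (-1.36), the monocarboxylate transporter Slc16a7 (-1.23) and Tigar (-0.96). The pyruvate kinase Pklr, not well above background in hypothalamus, was at least 1.30-fold lower there. Pdk3 and Pdp1, a kinase and a phosphatase of the same complex, were both called lower in hypothalamus than in prefrontal cortex.

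The feeding regimens were compared over the 3 regions with the same model. All 3 regions of a diet were dissected from 1 pool of animals, which makes the p-values too small. No gene of the 34 was called in any diet contrast by limma. Over all genes 0.0% were called when CR was set against AD, 0.0158% when RFR was set against AD, and 0.0158% when both restricted groups were compared. At an unadjusted p under 0.05 by limma there were 5, 2 and 4 of the 34 genes, beside 2086, 777 and 1865 of all genes. These were 14.7%, 5.88% and 11.8% of the 34, beside 16.5%, 6.16% and 14.8% of all genes, so the counts did not exceed the background. For CR minus AD the genes were Eno1 at 0.45 ± 0.13, Dld at 0.40 ± 0.13, Pdk1 at 0.25 ± 0.10, Aldoa at -0.28 ± 0.11 and Pfkm at -0.32 ± 0.09, the last with the lowest adjusted p, 0.21 by limma. Pgam1 at -0.25 ± 0.09 and Ldhb at -0.24 ± 0.10 were those of RFR minus AD, where the lowest adjusted p was 0.74 by limma. Eno1 at 0.45 ± 0.13, Dld at 0.35 ± 0.13, Pdk1 at 0.27 ± 0.10 and Pfkfb4 at -0.38 ± 0.10 were those of CR minus RFR, with adjusted p from 0.20 by limma. Contrasts that share the CR arrays are not independent. None of the other 58 pathway genes was called for a diet. Without the amygdala arrays, limma called 2 genes for CR minus AD, Dlat at 0.49 (adjusted p = 0.045) and Dld at 0.55 (adjusted p = 0.043). These were 5.88% of the 34 genes, and the same fit called 9.79% of all genes. Those 4 arrays split by diet between slides 1 and 2, so diet and slide cannot be told apart there, and adjusted p of the 34 genes in this contrast ranged from 0.043 to 1.0 over the alternatives. For CR minus AD a second Dld probe gave -0.11 in hypothalamus and 0.32 in prefrontal cortex, beside 0.48 and 0.61 on the reported probe. A second Dlat probe gave 0.26 in both regions.

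Within a region each diet has 1 array and no test is possible, so differences of at least 0.5 log2 units (1.41-fold) were counted on the reported probes. In the amygdala 5 genes differed by that much between CR and AD, 14.7% of the 34, against 23.1% of all genes. Hk1, the main brain hexokinase, read 0.22 in AD, 0.76 in RFR and 1.49 in CR, a difference of 1.27 or 2.40-fold between CR and AD. It was the 1 gene of the 34 at or past 1 log2 unit within a region, and 2.23% of all genes were higher by that much in this comparison. The AD amygdala array was the lowest of all 9 for Hk1 and the CR amygdala array the highest. In hypothalamus Hk1 read 0.75, 0.54 and 0.54, and in prefrontal cortex 1.35, 0.96 and 1.06, without that order. Another probe of Hk1 read -0.26, 0.39 and 1.07 in amygdala and a further one -1.96, -1.35 and -0.08, in the same order of diets. A dimmer probe read -4.04, -4.32 and -3.67, and another was not well above background on any array.

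**Figure D3:**
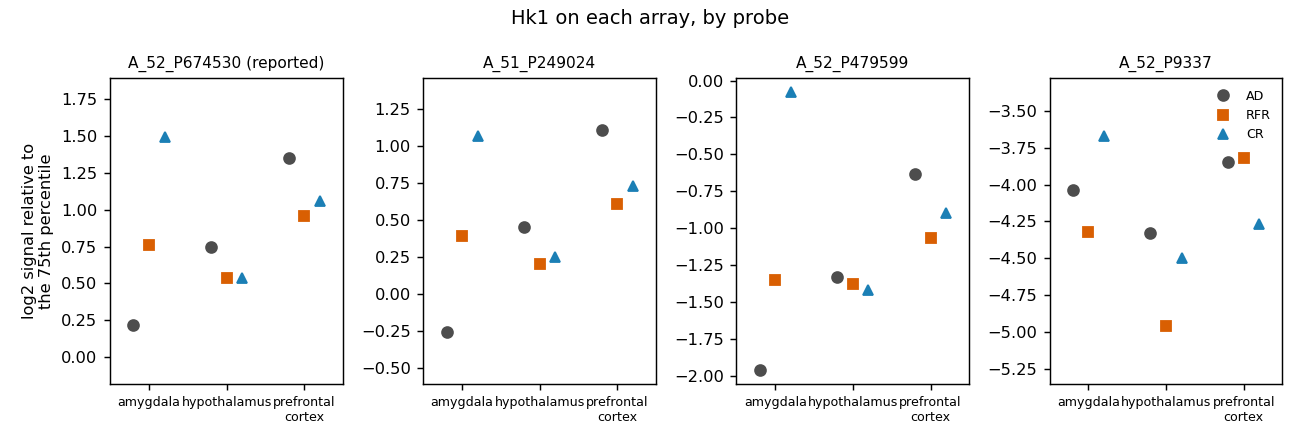
Log2 signal of 4 Hk1 probes relative to the 75th percentile, by region on the horizontal axis, with circles for AD, squares for RFR and triangles for CR and an axis of the same span in each panel. The probe in the first panel is the one reported, and in every panel but the last the AD array lies lowest and the CR array highest among the amygdala arrays.

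The other amygdala genes past 0.5 between CR and AD were Eno1 (0.35, 0.43 and 1.1, a difference of 0.75), Pkm (3.51, 3.73 and 4.11, a difference of 0.60), Pfkfb2 (0.59, 0.56 and 0.03, a difference of -0.55) and Pfkfb1 (-2.09, -2.41 and -2.78, a difference of -0.69). The other probes of Pfkfb2 were lower in CR as well, at -4.14 against -4.43 and -1.65 against -2.34 for AD against CR. Second probes of Pfkp and Aldoa gave CR minus AD differences of -0.62 and -0.54, beside 0.02 and -0.45 on the reported probes. These comparisons set slide 3 against slide 1, and summed oligodendrocyte markers were 147 in CR and 123 in AD, astrocyte markers 74.8 and 93.8, and neuronal ones 174 and 175. Their part was not tested. Between CR and RFR in amygdala 5 genes passed 0.5, against 17.9% of all genes: Hk1 (0.73), Eno1 (0.66), Ldha (0.51), Pfkfb2 (-0.53) and Pfkfb4 (-0.57). For Ldha the second probe read 4.77 in RFR and 4.62 in CR, the opposite order. Between RFR and AD in amygdala Hk1 (0.54) and Mpc2 (-0.51) passed, against 13.4% of all genes. Mpc2 read 3.61, 3.10 and 3.41 there. A second Pdhb probe gave -0.58 for RFR minus AD, beside -0.29 on the reported one.

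In the hypothalamus 1 gene passed 0.5 between CR and AD, Slc2a4, at -1.16 in AD, -1.08 in RFR and -0.37 in CR, a 1.73-fold difference of 0.79, against 14.0% of all genes. Second probes of Pdhb and Ldha, well above background on all 9 arrays, gave 0.58 and -0.56, beside 0.01 and 0.04 on the reported probes. Between CR and RFR, both on slide 2, Slc2a4 (0.71) and Dlat (0.54) passed, against 6.56% of all genes. Dlat read 2.51, 2.44 and 2.99, and its second probe 1.22, 1.36 and 1.49, also highest in CR. Between RFR and AD no gene of the 34 passed, against 4.87% of all genes. The extremes there were Hk2 at 0.17 and Pdk3 at -0.45, and 26 of the 34 genes were below 0, with a median of -0.13 beside -0.06 over all genes. Between CR and RFR 24 of the 34 were above 0, with a median of 0.13 beside 0.03. The shares of all genes on the same side of 0 were not computed, so these counts have no background beside them. Both comparisons use the RFR hypothalamus array, on which summed neuronal markers were 108, beside 114 in AD and 119 in CR. Summed oligodendrocyte markers were 165 on it, beside 203 in AD and 219 in CR, astrocyte markers 87.3 beside 109.0 and 96.4, and erythroid markers 0.912 beside 2.47 and 3.53. Their part was not tested.

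In the prefrontal cortex 4 genes passed 0.5 between CR and AD, 11.8% of the 34 against 11.7% of all genes. Mpc2 read 3.38 in AD, 3.78 in RFR and 4.01 in CR, a difference of 0.63. Dld read 2.18, 2.39 and 2.79 (0.61) and Dlat 2.47, 2.54 and 2.98 (0.50), and their second probes read -0.06, 0.34 and 0.26 and 1.48, 1.60 and 1.74. On their reported probes Mpc1, Pdha1 and Pdhb, of the same carrier and complex, differed little there, at -0.04, 0.03 and 0.07. Second probes of Mpc1 and Pdha1 gave -0.06 and -0.03. A second Pdhb probe, well above background on all 9 arrays, did not follow the first. It read 3.35, 3.88 and 4.09, a CR minus AD difference of 0.74. Pfkl, at 2.78, 2.31 and 2.17 (-0.61), was the 1 past 0.5 on the lower side among the reported probes. A second Ldha probe gave a CR minus AD difference of -0.61, beside -0.05 on the reported one. Summed oligodendrocyte markers there were 79.1 in AD, 57.4 in RFR and 105 in CR, astrocyte markers 90.9, 82.9 and 77.8, and neuronal markers 238, 216 and 253, and their part was not tested. In the amygdala the second probe of Dld did not follow the first, at -0.30, 0.08 and -0.94 beside 2.33, 2.09 and 2.43. Nor did it in hypothalamus, at 0.31, 0.42 and 0.20 beside 2.15, 2.31 and 2.63. Between RFR and AD, both on slide 1, Pfkfb2 passed at 0.65, against 6.38% of all genes, from -0.04 in AD to 0.61 in RFR. Of its other probes, 1 was also higher in RFR, at -2.34 in AD and -1.08 in RFR, and the other, the dimmest of the 3, was lower, at -3.69 and -4.01. Between CR and RFR Eno1 (0.51) and Pfkfb1 (-0.72) passed, against 8.12% of all genes, Eno1 at 0.92, 0.69 and 1.20 and Pfkfb1 at -2.79, -2.43 and -3.15. In all 9 comparisons, 20 to 29 of the 34 genes differed by less than 0.25.

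**Figure D4:**
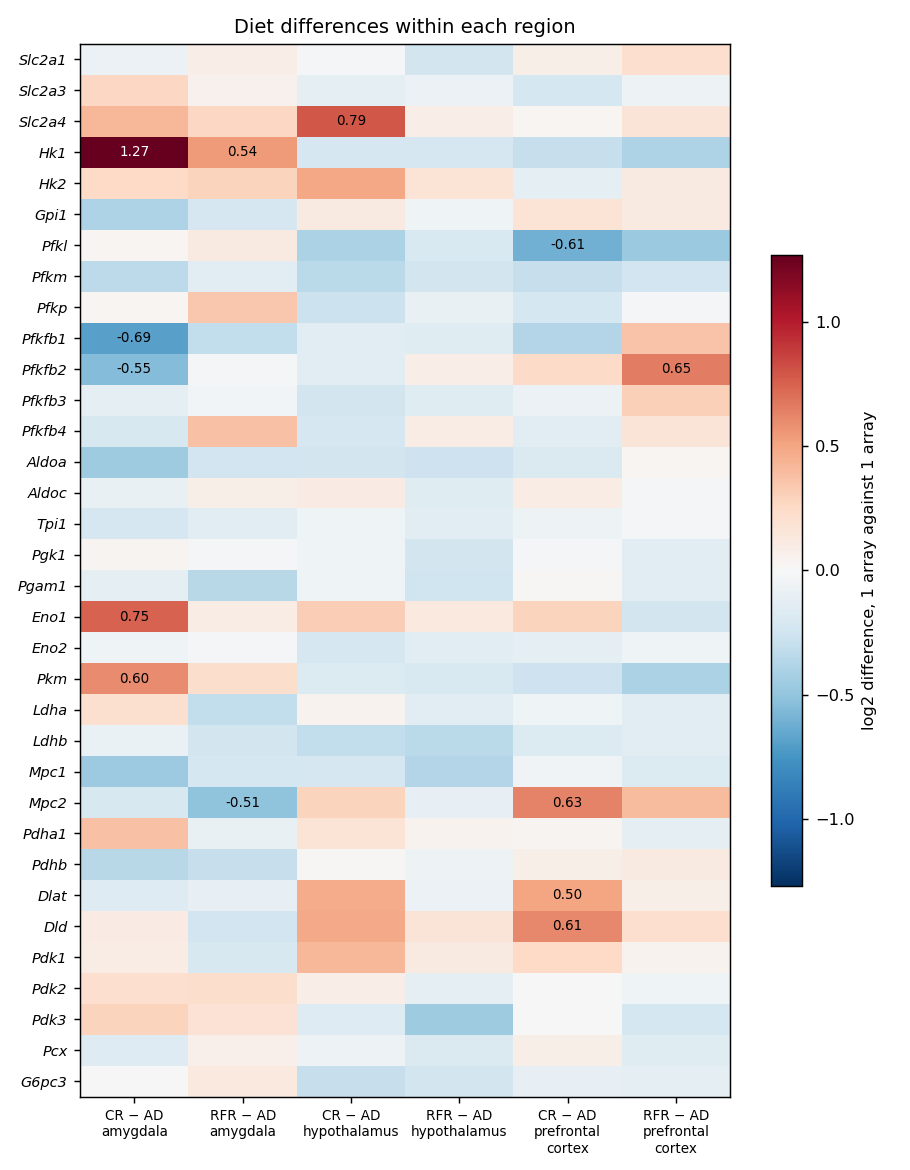
Log2 difference of CR and of RFR from AD for the 34 genes within each region, 1 array against 1 array, with red for higher and blue for lower than AD. Values are printed where they reach 0.5, from -0.69 for Pfkfb1 to 1.27 for Hk1, both between CR and AD in amygdala.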

How the data were processed

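RNA from 4 mice was pooled for each array and 400 ng was labelled with Cy3, per the labels' protocols. The deposited scanner files come from Agilent Feature Extraction 9.5.1.1 with protocol GE1-v5_95_Feb07 and XDR extraction, per the file headers. The deposited processed signal is an intensity, background-subtracted within an array and not scaled between arrays, as are the deposited median spot and background intensities. Other deposited columns are flags of 0 or 1. The authors' deposited value table holds a ratio of each array to the AD array of its region: after 1 constant per array, 99.2% of them matched the scanner files' ratios to within 0.01 on the log2 scale, so its direction and scale are known and its centring differed by 0.005 to 0.131.

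From each log2 processed signal the 75th percentile of the array's 43379 noncontrol spots was subtracted, outlier spots were dropped, and spots of a probe were averaged. Probes were named by RefSeq accession through a mouse gene table (GRCm38.p6, names only): 22951 of 41174 matched. The brightest probe on average stood for a gene. Region and diet contrasts used limma 3.58.1 (R 4.3.3), two-sided, on 12619 genes with a value on at least 6 arrays and a signal well above background on at least 3, with 4 residual degrees of freedom (2.9 prior). On simulated data with 12535 genes, the contrast of hypothalamus with prefrontal cortex recovered 30% of the genes set to differ 1.5-fold, 92% at 2-fold, 100% at 4-fold and 98% at 8-fold, and called 9 of 12335 genes set not to differ. The contrast of prefrontal cortex with amygdala recovered 26%, 82%, 100% and 100% at these folds and called 11 genes set not to differ. The noise was independent between arrays. Only 50 genes were set to differ at each fold, while 48.0% of all genes were called between hypothalamus and prefrontal cortex in the data. The recovery in the data can therefore differ from these values.

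The members, lists, tests and alternatives were chosen with earlier results of these data known. Named are all members. Values on every array are given for members called in a region contrast with a difference of at least 0.5 log2 units, those at or past 1 within a region and those with the largest diet difference in a region, and other members were added freely. Of the other pathway genes, up to 8 called in each direction with the largest difference are named, and some of these are not reported here. A bound for a dim gene uses, per array, the higher of the lowest signal well above background and its own. The normexp alternative (offset 50) was run on median spot signals. The number of arrays limits the precision. Other steps used Python 3.11.15, numpy 2.4.6, pandas 2.3.3 and matplotlib 3.10.9.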

Additional observations from a re-analysis of the deposited data

Results flagged for a closer look

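For 3 genes the difference between RFR and AD ran in opposite directions in amygdala and prefrontal cortex by at least 0.3 log2 units each way. Each value compares 1 array with 1 array, and the difference between regions was not tested. Hk1 was higher in RFR than in AD in amygdala (0.54) and lower in prefrontal cortex (-0.39). Pfkfb1 was at -0.31 in amygdala and 0.36 in prefrontal cortex. Mpc2 was at -0.51 in amygdala and 0.40 in prefrontal cortex. The prefrontal arrays of both diets lay on slide 1, and the amygdala arrays on slides 2 and 1.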

How the results depend on the processing

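Of 384 values of the 32 region calls under 12 alternatives each, 281 stayed past the threshold with the same direction, 103 kept the direction and lost the call, and none reversed. Leaving out the RFR pool ended 24 calls, the CR pool 18, the AD pool 15 and the CR amygdala array 6. Slide as a fixed term ended 15. With it 2 genes were called between hypothalamus and amygdala, both among the 8, and 3 between prefrontal cortex and amygdala, 1 of them among the 6. Region alone, with no replicate block over the pools, left 2 in the latter contrast. With 1 pool or the CR amygdala array left out, the counts ran from 1 to 5 between hypothalamus and amygdala, from 1 to 4 between prefrontal cortex and amygdala and from 6 to 18 between hypothalamus and prefrontal cortex. For CR minus AD, leaving out a region gave 0 to 2. Within regions, a fold of 1 log2 unit in place of 0.5 left 1 of 10 differences for CR minus AD, 0 of 3 for RFR minus AD and 0 of 9 for CR minus RFR. Of 88 values of the 22 such differences under other processing, 16 fell below 0.5 and none reversed. The median of all genes for CR minus AD was -0.04, and 0.07 in the authors' deposited table, and no other scaling moved it by over 0.1. The cause of these losses was not tested, though fits without a pool have fewer arrays. With 3 arrays a region, small regional differences can be missed, and all 34 genes were well above background on every array.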
